A study of Mus musculus with 6 samples.

Results

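A set of 10 genes around the nuclear receptor gene Pparg were examined in epidermal keratinocytes of mice with and without the Mediator subunit gene Med1. The genes were Pparg, Lpl, Angptl4, Cd36, Fabp5, Acsl1, Plin2, Plin3, Cidea and Pnpla2, and every probe whose platform symbol was one of these 10 names was taken. The list was selected on measured values of these same arrays, so the KO minus CON difference of a member is given as a description, with no test. Of the 10 genes, 9 had a probe (12 probes in all), and Acsl1, an acyl-CoA synthetase, had none under that symbol. A probe was tested when its detection p was below 0.01 on at least 3 of the 6 arrays, which left 8 members with 1 tested probe each, of 7461 genes tested over the whole array. The other 4 member probes were not detected on any array.

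Keratinocytes came from the skin of C57BL6 mice at 10 wk of age. CON mice carried floxed Med1 alleles (MED1 fl/fl) without Cre and served as littermate controls, and KO mice carried the same floxed alleles with Cre driven by the keratin 14 (K14) promoter, which is active in basal keratinocytes and the epithelial lineages derived from them, including sebaceous glands. Each group had 3 arrays, and the keratinocytes of a group came from 2 mice. Which arrays share a mouse is not stated, so the p-values below measure only the spread between arrays, which may be partly technical. Skin was trypsinized, epidermis was separated from dermis, and biotin-labelled RNA was read on Illumina bead arrays (MouseRef-8 v2.0), which have 1 colour. By the study's account the hair follicles of CON skin were resting (telogen) at this age, while KO skin showed an abnormal shift towards growth (anagen). Its wounding protocol describes KO skin as a mixture, with patches in anagen among skin in telogen. Genotype and hair cycle phase thus cannot be told apart here. In such bulk RNA, a change in the number of cells of a type and a change in RNA per cell cannot be told apart either.

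PPARG is a nuclear receptor that binds DNA together with a retinoid X receptor and is activated by fatty acids and their derivatives. It is best known as the driver of fat cell formation, and in skin it is associated with sebocytes, the lipid-filled cells of the sebaceous gland. MED1 is the Mediator subunit through which many nuclear receptors contact the transcription machinery. The other members act along the route of a fatty acid through a cell, from release at the surface (Lpl, Angptl4) and entry (Cd36) through binding and activation (Fabp5, Acsl1) to storage in droplets (Plin2, Plin3, Cidea) and release from them (Pnpla2).

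The excised gene was checked first. The Med1 probe that passed the filter had log2 levels of 7.09, 6.81 and 6.69 on the CON arrays and 5.85, 5.71 and 6.13 on the KO arrays. All KO arrays were below all CON arrays, and the change was -0.96 ± 0.15 (SE, n = 3 per group, limma adjusted p = 0.00179). The 3 other Med1 probes were not detected on any array, and where the probes lie relative to the excised part is not known here. Levels throughout are log2 intensities after background correction, an offset of 16 and quantile normalization, and levels of different probes are not compared. Between 9866 and 10636 probes per array were detected, and arrays of one group correlated at 0.9892 to 0.9935 across tested probes, against 0.9652 to 0.9683 between groups.

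The promoters of the members are shown because the receptor studied here is itself a DNA-binding protein and several members differed together. RefSeq (GRCm38.p6) start sites were given for 6 of the 10 members, 9 starts in all, and Lpl, Angptl4, Fabp5 and Cidea had no entry in the table used. The 250 bases before each start were searched on both strands for AGGTCA, the hexamer that PPAR and RXR receptors recognise. In the sequences, lower case is the printed strand of the gene and capitals mark that hexamer, written TGACCT where it lies on the opposite strand. Pparg has 3 starts on the plus strand of chromosome 6, and the first 2 are shown with those of the 2 perilipins among the members.
Pparg start 1, chr6:115360894-115361143, plus strand: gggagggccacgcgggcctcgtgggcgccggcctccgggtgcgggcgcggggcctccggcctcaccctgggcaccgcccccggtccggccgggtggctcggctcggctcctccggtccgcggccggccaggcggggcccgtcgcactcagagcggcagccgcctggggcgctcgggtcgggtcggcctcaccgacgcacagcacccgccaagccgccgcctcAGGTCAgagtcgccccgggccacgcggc
Pparg start 2, chr6:115362099-115362348, plus strand: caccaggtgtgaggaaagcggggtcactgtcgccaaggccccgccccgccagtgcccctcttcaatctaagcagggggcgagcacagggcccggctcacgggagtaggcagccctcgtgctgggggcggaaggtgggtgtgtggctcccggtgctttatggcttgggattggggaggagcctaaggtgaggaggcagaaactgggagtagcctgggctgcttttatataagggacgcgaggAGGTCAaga
Plin2, chr4:86670060-86670309, minus strand: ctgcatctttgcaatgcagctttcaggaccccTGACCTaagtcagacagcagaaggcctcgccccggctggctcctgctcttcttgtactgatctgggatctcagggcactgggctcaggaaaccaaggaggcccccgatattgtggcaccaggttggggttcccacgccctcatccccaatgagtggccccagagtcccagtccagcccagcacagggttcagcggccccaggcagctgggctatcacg
Plin3, chr17:56290512-56290761, minus strand: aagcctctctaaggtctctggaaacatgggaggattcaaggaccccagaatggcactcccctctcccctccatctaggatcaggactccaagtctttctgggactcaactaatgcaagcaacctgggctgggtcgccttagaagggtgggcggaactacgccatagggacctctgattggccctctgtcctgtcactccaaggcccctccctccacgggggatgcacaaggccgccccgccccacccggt

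The hexamer began 28 bases before Pparg start 1 and 9 bases before Pparg start 2. It began 218 bases before the Plin2 start, on the opposite strand. In Cd36 it began 228 bases before the start, also on the opposite strand. The third Pparg start, both Acsl1 starts, Plin3 and Pnpla2 did not hold these 6 letters in the window. The hexamer was thus in 4 of the 9 member windows, and it was in 14.0% of all 32851 windows of the same length. The 2-copy form AGGTCANAGGTCA, with up to 2 mismatches, matched in Plin2 and Cd36 and in 3.24% of all windows, and in Plin2 this match overlaps the hexamer shown. A match of letters is a description of sequence, and no binding was measured here.

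Of the 8 members tested, 7 were higher in KO at an adjusted p under 0.05 and 0 were lower, against 14.1% of all tested genes higher and 14.7% lower. In 7 members every KO array lay above every CON array, which held for 22.7% of all genes (the reverse held for 22.5%), and in 1 the groups overlapped. The median change of the 8 members was 1.24 and that of all genes 0. Plin2, 1 of the 7, did not keep its call under 8 of 21 alternative settings. Because the members were selected on these values, nothing is read from those counts.

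**Figure D1:**
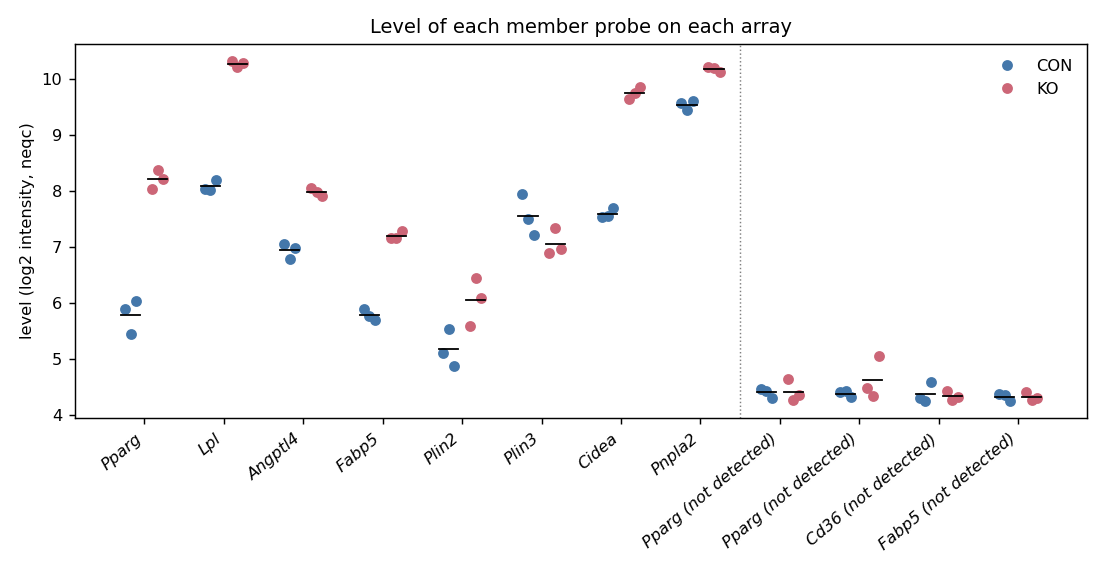
Level of each member probe (log2 intensity, vertical axis) on each of the 3 CON and 3 KO arrays, with a black line at the group mean. The 8 tested probes are left of the dotted line, where 7 show KO above CON and Plin3 overlaps, and the 4 probes that were not detected on any array are right of it.

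Pparg itself had levels of 5.89, 5.45 and 6.03 on the CON arrays and 8.04, 8.38 and 8.22 on the KO arrays. Every KO array was above every CON array by more than the spread within either group, and the probe was detected on all 6 arrays. The mean was 5.79 ± 0.30 (SD, n = 3) in CON and 8.21 ± 0.17 in KO, a change of 2.42 ± 0.16 (SE) or 5.35-fold. This was the 8th largest rise of the 7461 genes with this processing. The probe was dim in CON, with raw intensities of 129.9 to 161.1 where the CON array medians were 107.7 to 117.3. Over the alternative settings the change ranged from 1.42 to 2.55. The other 2 Pparg probes, annotated to the same transcript, stayed between 4.27 and 5.05 and were not detected on any array, so the change rests on 1 probe.

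At the cell surface, Lpl encodes lipoprotein lipase, which frees fatty acids from circulating triglyceride. Its levels were 8.04, 8.02 and 8.20 in CON and 10.32, 10.21 and 10.28 in KO. The groups were far apart relative to their spread (SD 0.10 in CON and 0.06 in KO), with a change of 2.19 ± 0.10 or 4.55-fold. Angptl4 encodes a secreted inhibitor of that lipase. Its levels were 7.05, 6.78 and 6.99 in CON and 8.06, 7.99 and 7.92 in KO. It was higher on every KO array, by 1.05 ± 0.11 or 2.07-fold, so the lipase and its inhibitor were higher on the same arrays. Cd36, a receptor that aids fatty acid entry, had 1 probe with levels of 4.25 to 4.60 in CON and 4.27 to 4.44 in KO, and it was not detected on any array.

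Fabp5 encodes the epidermal fatty acid binding protein, which carries fatty acids in the cytosol. Its tested probe had levels of 5.89, 5.77 and 5.70 in CON and 7.17, 7.16 and 7.29 in KO. The groups did not overlap, and the change was 1.42 ± 0.10 or 2.68-fold. This probe was also dim in CON (raw intensity 132 to 160.8), and over the alternative settings its change ranged from 0.72 to 1.47. A second Fabp5 probe, annotated to the same transcript, stayed between 4.25 and 4.42 and was not detected on any array, so the change rests on 1 probe.

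The 3 droplet proteins differed from each other. Cidea promotes the fusion and growth of lipid droplets, and its levels were 7.53, 7.55 and 7.69 in CON and 9.64, 9.75 and 9.86 in KO. All KO arrays were higher, by 2.16 ± 0.10 or 4.47-fold. Plin2, a perilipin that coats droplets in most cell types, was dim, with levels of 5.11, 5.53 and 4.88 in CON and 5.60, 6.45 and 6.10 in KO. It was detected on 2 of 3 CON arrays and all KO arrays, and its lowest KO level was just above its highest CON level. Its change was 0.88 ± 0.23 or 1.83-fold, the widest error among the members. Over the alternative settings it ranged from 0.32 to 1.12, and it missed the threshold in 8 of 21, among them leaving out CON replicate 1 (0.83), CON replicate 3 (0.73), KO replicate 2 (0.67) or KO replicate 3 (0.84).

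Plin3, a perilipin that moves between cytosol and droplets, was the member that was not higher in KO. Its levels were 7.95, 7.51 and 7.21 in CON and 6.89, 7.34 and 6.96 in KO. The groups overlapped, since KO replicate 2 exceeded CON replicate 3, and the difference was -0.49 ± 0.20, with a 95% interval of -0.94 to -0.05. Pnpla2 encodes adipose triglyceride lipase, which starts the breakdown of stored triglyceride. Its levels were 9.57, 9.44 and 9.60 in CON and 10.22, 10.20 and 10.12 in KO, so that every KO array was above CON, by 0.65 ± 0.09 or 1.56-fold.

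**Figure D2:**
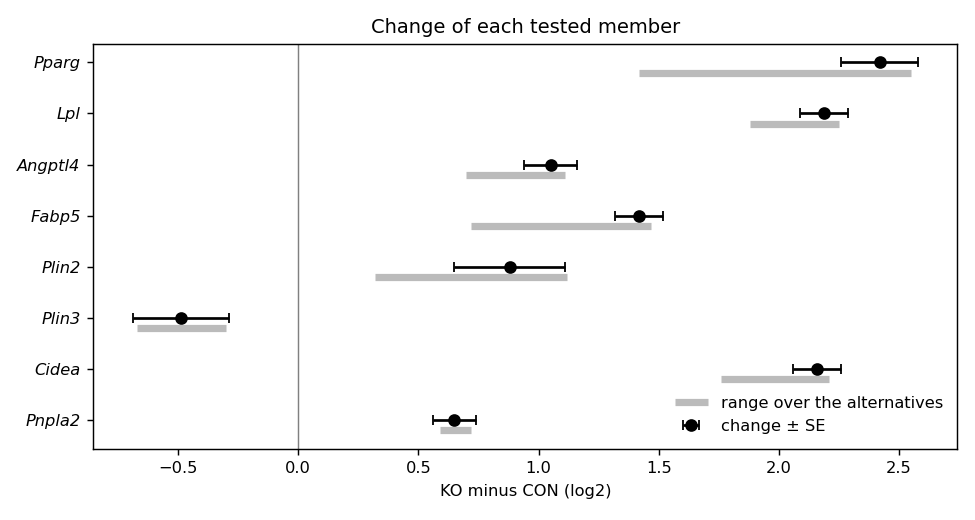
KO minus CON difference of each tested member (log2, horizontal axis). Points with bars are the change ± SE, and grey bars run from the lowest to the highest value over the alternative settings, which for Pparg is 1.42 to 2.55 and for Plin2 0.32 to 1.12. Plin3 lies below 0 throughout and the other 7 above 0.

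The 5 genes outside the list whose levels followed the Pparg probe most closely over the 6 arrays were Acta2, Ermp1, Endou, Pex11g and Ctsc, with Pearson r of 0.9989, 0.9982, 0.9979, 0.9976 and 0.9973. These correlations are across 6 arrays in 2 groups that share the genotype difference, and 431 genes had r above 0.95. Among the members, r with Pparg was 0.9906 for Pnpla2, 0.9902 for Cidea, 0.9882 for Angptl4 and for Lpl, and 0.9804 for Fabp5. It was 0.7894 for Plin2 and -0.666 for Plin3. Within the 3 CON arrays alone, r in this order was 1, 0.58, 0.9, 0.76, -0.1, -0.99 and -0.13. Within the 3 KO arrays it was -0.23, 0.54, -0.55, -0.98, -0.06, 1 and 0.91, and 3 arrays give such values little precision.

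Other genes of the pathway, none of them a member, were tested in the fit over all genes. Their lists were chosen with earlier results of these data known, so the list shares below are descriptions and not independent results. A gene that was detected in KO alone passed the filter only because it was high there, so counts and medians of lists are given over genes detected on at least 1 array of each group. This way of counting was chosen after seeing the data, and over all 7308 such genes 13.5% were higher, 13.9% were lower and the median change was 0. Among the receptors themselves, Ppara, Ppard and Rxrg were not detected, and Rxra and Rxrb, the partners of PPARG that could be measured, did not pass the threshold (changes of -0.02 ± 0.20 and -0.21 ± 0.10, adjusted p = 0.944 and 0.167). Thus 0 of 2 tested genes of that list passed in either direction, with a median change of -0.12.

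Of 14 tested regulators of Pparg known from adipocytes, 2 rose (14.3%), 5 fell (35.7%) and 7 did not pass (median -0.29). Genes that promote and genes that restrain fat cell formation were among those that fell. Nr1h3, the oxysterol receptor LXR alpha, rose by 0.80 ± 0.17 (adjusted p = 0.00932) and Cebpb, an early factor of fat cell formation, by 0.64 ± 0.09 (adjusted p = 0.00136). Both were higher on every KO array. Klf2 and Gata3, which restrain Pparg in fat cell precursors, fell by 0.83 ± 0.17 (adjusted p = 0.00755) and by 0.76 ± 0.09 (adjusted p = 0.00059). Ddit3, an inhibitor of C/EBP factors, fell by 0.59 ± 0.12 (adjusted p = 0.00638), while its other tested probe changed by -0.25 ± 0.16 (adjusted p = 0.30). Klf5 and Klf4, which promote fat cell formation and are named here after their values were seen, fell by 0.51 ± 0.10 (adjusted p = 0.00778) and by 0.50 ± 0.11 (adjusted p = 0.0129). The other 2 tested Klf4 probes changed by -0.35 ± 0.12 and -0.57 ± 0.20 (adjusted p = 0.0602 and 0.0633).

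Of 18 genes of fatty acid and lipoprotein uptake detected in both groups, 4 rose (22.2%), 3 fell (16.7%) and 11 did not pass (median 0.10). Slc27a4, a fatty acid transport protein needed for the skin barrier, went from 6.98, 7.22 and 7.38 to 8.53, 8.65 and 8.65, a rise of 1.41 ± 0.12 (adjusted p = 8.95e-05). Its relative Slc27a3 moved the other way, from 9.28, 9.57 and 9.16 to 8.10, 8.44 and 8.01, a change of -1.15 ± 0.15 (adjusted p = 0.000812). Groups did not overlap for either gene. Acsm3, a medium-chain acyl-CoA synthetase left out of these counts, was detected on the 3 KO arrays alone, where it was at least 1.65-fold higher. Acsl4, a long-chain acyl-CoA synthetase, rose by 0.55 ± 0.10 (adjusted p = 0.0046). Cav1, the main protein of caveolae, fell by 0.55 ± 0.11 (adjusted p = 0.007).

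Of 14 tested genes of the droplet list, 2 rose (14.3%), 2 fell (14.3%) and 10 did not pass (median 0.03). These shares are close to those of all genes. Fitm2 and Bscl2, both endoplasmic reticulum proteins of droplet formation, rose by 0.75 ± 0.10 (adjusted p = 0.000796) and 0.55 ± 0.10 (adjusted p = 0.00382). Hsd17b11, a droplet-associated dehydrogenase, fell by 0.56 ± 0.10 (adjusted p = 0.00489). Lpcat2, an enzyme of phosphatidylcholine synthesis, fell by 0.41 ± 0.09 (adjusted p = 0.0116) with its brightest probe, but its other 2 tested probes changed by -0.01 ± 0.09 and 0.08 ± 0.18 (adjusted p = 0.957 and 0.788). The perilipins Plin1, Plin4 and Plin5 and the CIDE genes Cideb and Cidec, relatives of the droplet members, were not detected on any array.

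Of 9 genes of lipolysis and fatty acid release detected in both groups, 5 rose (55.6%), 0 fell and 4 did not pass (median 0.54). With the 2 genes detected in KO alone, the count is 7 of 11 and the median 0.93. Those 2 could pass the filter only by being high in KO, so nothing is read from this larger count. Ces1d, a carboxylesterase that hydrolyses triglyceride, had levels of 7.56, 7.44 and 7.78 in CON and 10.14, 10.33 and 10.17 in KO, a rise of 2.62 ± 0.12 (adjusted p = 4.18e-06). Carboxylesterase genes form a family of close copies, so this probe may also see a relative. Mgll, which completes triglyceride breakdown, rose by 1.74 ± 0.14 (adjusted p = 7.68e-05) and Aqp9, a channel that passes glycerol, by 1.27 ± 0.10 (adjusted p = 6.74e-05). The 2 genes detected in KO alone were Pnpla5, a relative of the member Pnpla2, and Ffar4, a receptor for long-chain fatty acids. They were at least 1.94-fold and 1.26-fold higher there, and neither could be tested once a KO array was left out. Without KO replicate 1 or without KO replicate 2, 4 of 9 genes were higher (Aqp9, Ces1d, Faah and Mgll).

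Of 24 tested PPAR target genes known from other tissues, 11 rose (45.8%), 1 fell (4.17%) and 12 did not pass (median 0.34). Acaa1b, a peroxisomal thiolase, rose by 2.07 ± 0.12 (adjusted p = 1.5e-05), and Pex11a, a protein of peroxisome division, by 1.14 ± 0.20 (adjusted p = 0.00405). Pdk4, a kinase that restrains glucose oxidation, rose by 1.05 ± 0.11 (adjusted p = 0.000253), although it was detected on only 1 CON array. Dgat1, which makes triglyceride, rose by 0.96 ± 0.13 (adjusted p = 0.00121) and Acot1, an acyl-CoA thioesterase, by 0.88 ± 0.10 (adjusted p = 0.00045). Acaa1b and Acot1 have near-identical copies (Acaa1a and Acot2), and their probes may not fully separate them. The probes assigned to Acaa1a and Acot2 changed by 0.43 ± 0.11 (adjusted p = 0.0217) and 0.13 ± 0.15 (adjusted p = 0.579). Which copy each probe sees was not tested. Of the 11, Slc25a20 rose by 0.45 ± 0.09 (adjusted p = 0.00843), but its other tested probe changed by -0.31 ± 0.14 (adjusted p = 0.129). It lost its call when the probes of a gene were averaged. Acadl rose by 0.38 ± 0.12 (adjusted p = 0.0433), and its other tested probe changed by 0.48 ± 0.18 (adjusted p = 0.085). The gene that fell was Txnip, by 0.72 ± 0.11 (adjusted p = 0.00171).

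**Figure D3:**
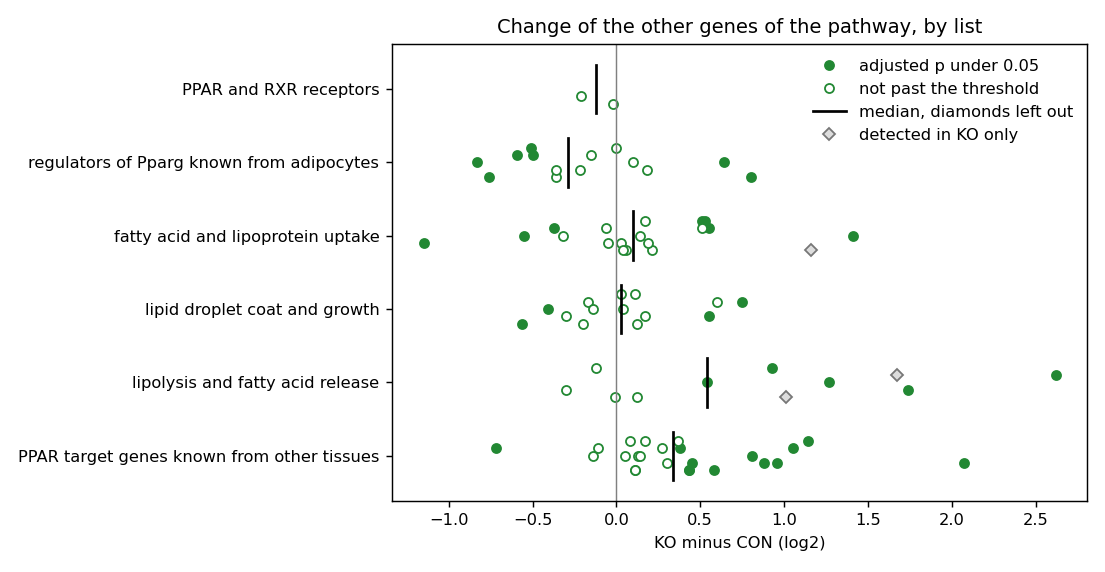
KO minus CON change (log2, horizontal axis) of each tested gene of the 6 pathway lists, filled where the adjusted p was under 0.05, with diamonds for the 3 genes detected in KO alone and a black bar at the list median without them. The lipolysis list has its median at 0.54 and the droplet list at 0.03.

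Marker genes of the labelled cell type and of other cells, also listed with earlier results known, were read on the same arrays. Of the keratinocyte markers, 7 of 7 basal and 8 of 9 differentiated ones passed the filter. Basal markers fell in 5 of 7 (71.4%, median -0.48), against 13.9% of all genes detected in both groups. Of the 8 differentiated markers, 1 rose, 1 fell and 6 did not pass (median -0.05). Of 5 sebocyte markers detected in both groups, 4 rose and 0 fell (median 0.43). With the 2 detected in KO alone the count is 6 of 7 and the median 1.27. Those 2 could pass the filter only by being high in KO, so nothing is read from this larger count. Another 3 of the 10 sebocyte markers on the array, Scd3, Far2 and Muc1, were not detected on any array. The summed intensity of the whole list was 15420 to 16720 on CON arrays and 22020 to 23480 on KO arrays. Krt79 and Apoc1, the brightest of the list, weigh most in that sum. They changed by 0.38 ± 0.11 (adjusted p = 0.0288) and 0.30 ± 0.11 (adjusted p = 0.0775). Fa2h, a fatty acid hydroxylase, rose by 2.04 ± 0.10 (adjusted p = 5.74e-06) and Mc5r, a melanocortin receptor of the sebaceous gland, by 1.51 ± 0.16 (adjusted p = 0.000328). Awat2 and Elovl3, enzymes of sebum lipid synthesis, were detected on the KO arrays alone, where they were at least 1.77-fold and 1.51-fold higher. The part of the sebocyte markers in the members' values was not tested. Of 10 adipocyte markers on the array none could be tested and 9, including Adipoq, Plin1, Fabp4 and Cidec, were not detected on any array. The summed intensity of that list was 63.6 to 75.0 in CON and 65.7 to 77.2 in KO. Macrophage and skeletal muscle markers had 0 tested genes as well. Of the tested markers, Langerhans cell markers fell in 5 of 7, melanocyte markers in 3 of 4, and the lone fibroblast (Dcn) and red blood cell (Hba-a1) markers in 1 of 1, while T cell markers detected in both groups rose in 3 of 5 and endothelial markers in 0 of 2. The part of these shifts, and of the fall in basal markers, was not tested.

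**Figure D4:**
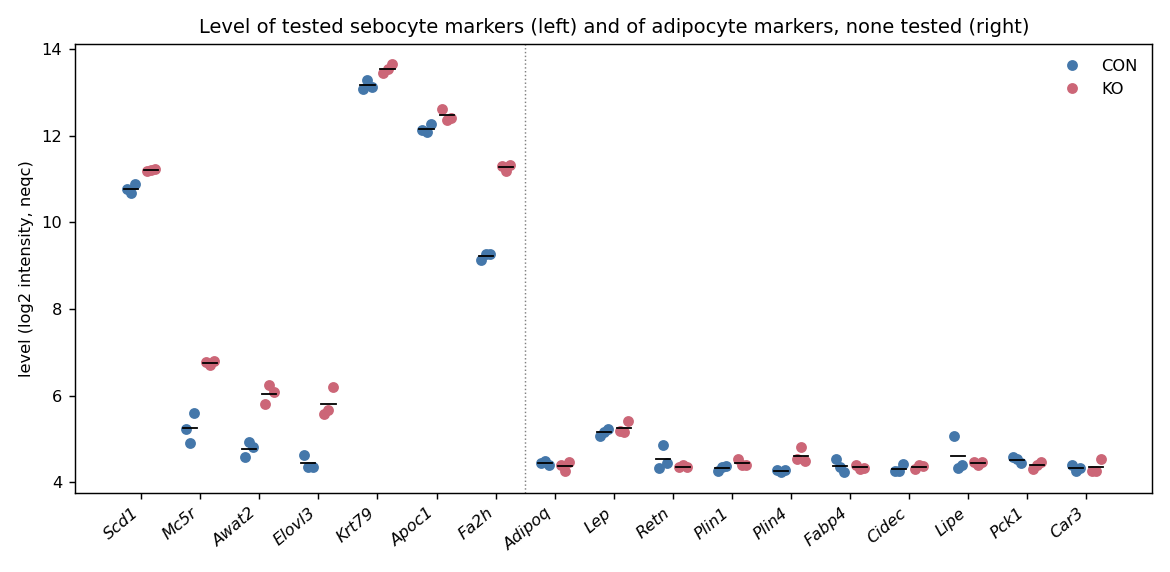
Level (log2 intensity, vertical axis) of the 7 tested sebocyte markers, left of the dotted line, and of the 10 adipocyte markers, right of it, on the 3 CON and 3 KO arrays, with black lines at group means. Of the sebocyte markers, Awat2 and Elovl3 were detected in KO alone, and the adipocyte markers lie near the floor in both groups.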

How the data were processed

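RNA of 3 CON and 3 KO arrays was compared. The authors deposited raw, linear probe intensity values for 25697 probes, which the submitters' processing notes credit to GenomeStudio 2011.1, and beside each a deposited detection p-value against the negative control beads. A second deposited table holds the authors' normalized intensity, which differed by at most 0.0188 (log2) from quantile normalization of the raw values without background correction. Genes were named from the platform annotation for 23978 probes, and 1719 were unnamed here.

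Raw intensities were processed with neqc of limma (version 3.58.1, R 4.3.3; background from the detection p-values, offset 16, quantile normalization, log2). Probes with a detection p below 0.01 on at least 3 of 6 arrays were tested (10386 probes). KO minus CON was fitted with lmFit and eBayes, two-sided, with Benjamini-Hochberg adjustment over all tested probes and a threshold of 0.05. A gene is represented by its tested probe of highest mean. The background correction enlarges the changes of dim probes relative to uncorrected values, and the offset pulls them towards 0. Fold values of dim probes therefore depend on these 2 settings. Where a probe was not detected on any array of a group, the fold is a lower bound, computed against, on each array, the higher of the probe's signal and the lowest signal among detected probes. Errors of changes are moderated SEs, and the number of arrays limits the precision. Slide and scan are not given in the sources used here.

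The members and all lists were chosen with earlier results of these data known. Named were all members, Med1, up to 5 called genes of each list with the largest change, and the 5 genes most correlated with Pparg. Called list genes with another tested probe that missed the threshold, and markers described beside a result, were named too. Promoters are the 250 bases before each start in RefSeq's table (GRCm38.p6), and figures were drawn with matplotlib (version 3.10.9, Python 3.11.15). Alternatives covered normalization, background, offset, filter, moderation, array weights, a replicate block, the methods' t-test, the probe of a gene and leaving out each array. Counting only genes detected in both groups was added after seeing the data.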

Additional observations from a re-analysis of the deposited data

How the results depend on the processing

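Each of the 8 tested members kept its direction under every alternative that gave a value. The members were selected on these values, so this is no sign of stability. The changes of Pparg, Lpl, Angptl4, Fabp5, Cidea and Pnpla2 ranged over 1.42 to 2.55, 1.88 to 2.25, 0.70 to 1.11, 0.72 to 1.47, 1.76 to 2.21 and 0.59 to 0.72. The deposited normalized values and the setting without background correction are nearly the same numbers, so they are not separate evidence. Plin2 (0.32 to 1.12) missed the threshold without a filter, under the methods' t-test and without CON replicate 1, CON replicate 3, KO replicate 2 or KO replicate 3, and it was not tested where detection on all 6 arrays was required. Plin3 (-0.67 to -0.30) passed the threshold as lower in KO with the authors' normalized values, without background correction, with offset 50, with trended and robust moderation and without CON replicate 3. It is the 1 member lower in KO under each of these settings, against 0 otherwise. The causes were not tested.

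Over the whole array, 1053 genes were higher and 1096 lower, and the methods' t-test at p below 0.005 gave 611 and 572. That t-test gave 1 higher and 2 lower among the regulators of Pparg, 1 lower in uptake and 6 higher among PPAR targets, and after Benjamini-Hochberg adjustment 1 higher and 3 lower among the regulators. Median scaling gave 3 lower regulators and 1 lower uptake gene. It moved the median of all genes by 0.03. In the lipolysis list 1 gene (Aqp3) was lower with the authors' normalized values, without background correction and with trended and robust moderation.

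With each array left out in turn, genes higher and lower over the whole array ranged from 717 to 960 and from 791 to 896, members from 6 to 7 and from 0 to 1, regulators gave 2 and from 5 to 7, uptake genes from 4 to 5 and from 2 to 3, droplet genes from 2 to 3 and from 2 to 3, lipolysis genes from 4 to 7 and from 0 to 1 (Aqp3, without CON replicate 1), and PPAR targets from 9 to 11 and 1. These list counts are over all tested genes, so Acsm3, Pnpla5 and Ffar4, detected in KO alone, are included wherever they were tested. The lipolysis count fell to 4 because Pnpla5 and Ffar4 were then detected on too few arrays to be tested, and Pnpla1 missed the threshold. The uptake count fell to 4 without KO replicate 1 or without KO replicate 2, where Acsm3 was not tested either. Nothing is read from the ranges of higher genes in these 2 lists.

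Same-numbered arrays did not deviate together (correlations of -0.03, 0.074 and -0.053). The labels state no pairing, and these values cannot exclude one. With the replicate number as a block, 925 genes were higher and 953 lower, and 7 members were higher and 0 lower. Dim signal limits Plin2, Cd36, the undetected Pparg and Fabp5 probes, and the CON levels of the tested Pparg and Fabp5 probes.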
